A study of Mus musculus with 9 samples.

Results

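Kinesins are motor proteins that walk along microtubules or take them apart, and in mice most are encoded by genes whose symbol starts with Kif. The family was taken as every gene whose symbol is Kif followed by a number and any further letters or digits, measured by a probe set that maps to 1 gene. Where a gene had several probe sets, the brightest over all arrays was used, with no filter on level. This gave 37 genes of 18193 measured. By role they fell into 12 mitotic kinesins, 13 kinesins of vesicle, organelle and ciliary transport, and 12 others.

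RNA of thymic iNKT cells, innate-like T cells that recognise lipids on CD1d, was measured on 5 arrays labelled Utx wildtype (WT1 to WT5) and 4 labelled Utx knock out (KO1 to KO4). All mice were between 8 and 12 weeks old and matched for sex and age. The titles call the arrays of a group biological replicates without saying whether each came from a separate mouse, so p-values measure the spread between these samples. The titles also name 3 batches: batch 1 holds WT1 and KO1, batch 2 holds WT2, KO2, KO3 and KO4, and batch 3 holds WT3, WT4 and WT5. The sources used here do not give the knockout allele, any Cre driver or the gate of the sort. Utx, encoded by Kdm6a, is a demethylase of histone H3, and the comparison asks how kinesin RNA levels differ in cells labelled as lacking it.

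A kinesin converts ATP hydrolysis in its motor domain into steps along a microtubule or into removal of tubulin from its end. Mitotic kinesins separate the spindle poles, align chromosomes and build the midzone at which the cell divides, and their RNAs are made mainly in the G2 and M phases of dividing cells. Transport kinesins carry vesicles, mitochondria, endosomes and ciliary cargo, and in T cells they move lytic granules and receptors. Genes of the G2 and M phases commonly carry a CCAAT box and a cell cycle element named CHR close to their start.

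Promoter windows from RefSeq (GRCm38.p6, 250 bases before to 50 after the start of transcription, 300 in all) were held for 31 of the 37 genes. They show whether the roles also differ in letters that the choice of genes did not use. The stretches below, 120 bases long and ending at position -1 before the start, belong to the 4 mitotic kinesins of smallest p, to Kif24, the kinesin of smallest p among the other roles, and to 2 transport kinesins. Capitals mark the box CCAAT, which reads ATTGG where it lies on the opposite strand. They also mark the element TTTGAA, which reads TTCAAA on that strand, and its palindromic variant TTCGAA.
Kif2c: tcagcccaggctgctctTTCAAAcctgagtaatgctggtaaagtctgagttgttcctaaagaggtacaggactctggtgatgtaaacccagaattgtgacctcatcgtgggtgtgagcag
Kif22: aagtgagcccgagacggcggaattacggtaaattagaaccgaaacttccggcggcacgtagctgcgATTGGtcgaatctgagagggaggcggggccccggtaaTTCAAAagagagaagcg
Kif23: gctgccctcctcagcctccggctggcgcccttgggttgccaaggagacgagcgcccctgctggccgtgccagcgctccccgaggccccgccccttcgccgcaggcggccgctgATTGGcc
Kif11: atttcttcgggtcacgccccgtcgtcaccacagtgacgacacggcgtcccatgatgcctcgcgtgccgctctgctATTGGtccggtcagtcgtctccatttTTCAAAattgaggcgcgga
Kif24: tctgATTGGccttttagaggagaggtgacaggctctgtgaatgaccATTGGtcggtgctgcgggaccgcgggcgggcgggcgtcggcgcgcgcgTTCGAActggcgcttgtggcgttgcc
Kif3a: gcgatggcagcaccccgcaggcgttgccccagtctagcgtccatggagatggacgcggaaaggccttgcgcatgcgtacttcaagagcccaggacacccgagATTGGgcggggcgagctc
Kif16b: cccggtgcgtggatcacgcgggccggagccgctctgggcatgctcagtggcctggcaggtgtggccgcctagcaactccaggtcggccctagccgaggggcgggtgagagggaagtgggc
The stretches lie at chr4:117178773-117178892 on the minus strand (Kif2c), chr7:127042421-127042540 minus (Kif22), chr9:61946800-61946919 minus (Kif23), chr19:37376262-37376381 plus (Kif11), chr4:41464849-41464968 minus (Kif24), chr11:53567249-53567368 plus (Kif3a) and chr2:142901465-142901584 minus (Kif16b). All lie directly upstream of the first exon.

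Kif2c held TTCAAA from -103 to -98 and no CCAAT in its window. Kif11 held ATTGG from -45 to -41 and TTCAAA from -19 to -14, and Kif22 held them from -54 to -50 and from -17 to -12. Kif23 held ATTGG from -7 to -3, and its TTTGAA lay at 3 to 8 after the start, outside the stretch shown. Kif24 held TTCGAA from -26 to -21 behind repeated ATTGG, Kif3a held ATTGG alone, and Kif16b held none of the searched letters.

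Over the full windows, with both strands searched, TTTGAA was present in 9 of 11 windows of mitotic kinesins (81.8%). It was present in 1 of 12 windows of transport kinesins (8.33%, Kif1a), in 2 of 12 of the others (16.7%) and in 17.9% of all 32851 promoter windows. Among mitotic kinesins with a window, Kif18a and Kif2b lacked it, and Kif15, which was not called, held it. CCAAT was present in 7 of 11 mitotic windows (63.6%) and in 4 of 12 transport windows (33.3%), the latter from 3 genes. It was present in 4 of 12 windows of the others (33.3%) and in 37.4% of all windows. Both motifs occurred in 6 mitotic windows (54.5%: Kif4, Kif11, Kif14, Kif18b, Kif22 and Kif23), in 0 of 12 transport windows, in 2 of 12 windows of the others (16.7%) and in 6.95% of all windows. The 2 others are Kif26b and Kif27, which were not called and whose differences were below 0 (-0.50 and -0.27). TTCGAA was found among the kinesins only in Kif24, against 1.56% of all windows. The E2F-like letters GCGGGAA were in 0 mitotic and 0 transport windows, in 2 windows of the others (Kif2a and Kif6) and in 4.6% of all windows. No matches of different motifs overlapped. A match describes letters and not binding.

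The deposited values are log2 levels per probe set, with array medians from 5.97 to 6.09 and interquartile ranges from 3.45 to 4.29. On the wildtype arrays these ranges ran from 3.45 to 3.84. KO1, KO3 and KO4 each had a wider range than any wildtype array, and KO2 lay within the wildtype values. The part of this wider spread in the differences between genotypes was not tested. Knockout minus wildtype differences were estimated with limma over all 18193 genes with batch as a fixed factor, and a gene was called at a Benjamini-Hochberg adjusted p under 0.05. Because batch 3 holds wildtype arrays alone, each difference rests on batches 1 and 2, and the batch 3 arrays bear only on the estimated spread. With WT2 left out, the difference is KO1 minus WT1 alone, and with WT1 or KO1 left out it rests on batch 2. On the brightest of its 4 probe sets, Kdm6a read 9.79 to 10.15 on the wildtype and 9.62 to 10.07 on the knockout arrays (difference -0.01, SE 0.19, adjusted p = 0.974 by limma). Its other probe sets are not shown here. The sources used here do not say whether its probe sets lie in the deleted part, so this level does not check the labels.

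Of the 37 kinesins, 12 rose in the knockout cells and 0 fell. That is 32.4% higher, against 5.99% higher and 3.18% lower over all genes. The rises lay mostly in one role. Of the 12 mitotic kinesins 10 rose, with a median difference over all 12 of 1.82 (log2, 3.54-fold). Of the 13 transport kinesins 0 rose and 0 fell (1 had an unadjusted p under 0.05), with a median of 0.23 (1.18-fold). Of the 12 others 2 rose, with a median of 0.18. The median of all genes was 0.04. It was larger for brighter genes: 0.11 above the 25th percentile of probe set levels (7.88% called higher) and 0.20 above the 50th (10.8%). Of the 37 kinesins, 33 exceeded the 25th percentile, so the transport and other medians lay near those of genes at a like level. The arrays are of bulk RNA, in which more cells of a type and more RNA per cell cannot be told apart.

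**Figure D1:**
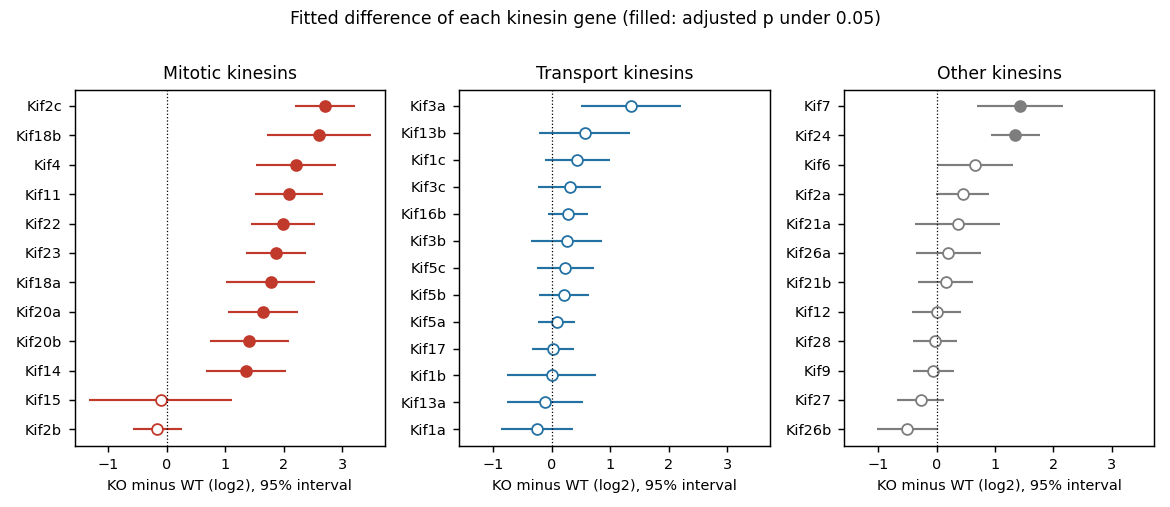
Knockout minus wildtype difference (log2, x axis) of each of the 37 kinesin genes, in a panel per role, with 95% intervals from the limma fit over 9 arrays and filled points for genes at an adjusted p under 0.05. The 10 called mitotic kinesins sit between 1.35 and 2.71, and none of the 13 transport kinesins is filled.

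The largest rises, those of Kif2c and Kif18b, were of kinesins that shorten microtubules at chromosomes and spindle ends. Kif2c, the centromeric depolymerase that corrects faulty chromosome attachments, read 6.92, 6.63, 6.83, 7.05 and 6.65 on WT1 to WT5 and 9.38, 9.13, 9.60 and 9.78 on KO1 to KO4. All knockout arrays stood above all wildtype arrays, and the fitted difference was 2.71 (SE 0.22, 6.53-fold, adjusted p = 0.00264 by limma). Kif18b, which shortens astral microtubules, read 6.05, 6.27, 6.32, 6.34 and 6.08 in wildtype and 8.92, 7.88, 8.69 and 9.50 in knockout cells. The groups did not overlap, KO2 was the lowest and KO4 the highest knockout array, and the difference was 2.60 (SE 0.39, adjusted p = 0.00891 by limma). Kif18a, which dampens the swings of aligning chromosomes, read 6.72, 6.94, 7.15, 6.69 and 6.82 against 8.77, 7.79, 8.94 and 8.88. KO2 again lay below the other knockout arrays but above all wildtype arrays, with a difference of 1.77 (SE 0.34, adjusted p = 0.0186 by limma). Without WT1 or KO1 the call of Kif18a was lost with a difference of 1.59 (adjusted p = 0.0511 by limma), and without WT2 with 2.05 (0.0743). Kif2b, a relative of Kif2c, was at the bottom of the scale, at 2.91 to 3.23 in wildtype and 2.67 to 3.12 in knockout cells, and was not called (difference -0.16, adjusted p = 0.576 by limma). Its level did not exceed 4.54, the 25th percentile of all probe sets.

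Motors that push spindle poles apart gave unlike results. Kif11, the tetrameric motor that slides opposed microtubules and so separates the poles, read 8.17, 8.63, 8.35, 8.34 and 8.66 in wildtype and 10.75, 10.22, 10.79 and 10.16 in knockout cells. The groups did not overlap and the difference was 2.09 (SE 0.26, adjusted p = 0.00481 by limma). Kif15, which keeps poles apart once they have separated, read 5.92, 7.47, 7.13, 6.92 and 5.83 against 7.18, 6.79, 6.59 and 5.98. These groups overlapped over most of their range, and the difference was -0.11 (SE 0.54, 95% interval -1.34 to 1.12, adjusted p = 0.911 by limma), so a rise the size of those of Kif2c or Kif11 lay outside the interval. Its sign was not the same in batch 1 (1.26) and batch 2 (-1.02). Kif15 is read by 1 probe set, with the largest wildtype SD of the mitotic kinesins (0.74). A dimmer probe set of Kif11 also differed little (0.14, SE 0.52), so unlike genes and unlike probe sets cannot be told apart here.

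Both chromokinesins, which sit on chromosome arms and push them outward, rose. Kif22 read 8.58, 8.60, 8.56, 8.73 and 8.63 in wildtype and 10.64, 10.04, 10.66 and 10.91 in knockout cells. All knockout values stood above the narrow wildtype range, and the difference was 1.99 (SE 0.24, adjusted p = 0.00465 by limma). Kif4, which also acts in chromosome condensation and at the midzone, read 6.34, 6.84, 6.59, 6.47 and 6.96 against 9.07, 8.20, 8.80 and 9.10. The lowest knockout array, KO2, was above the highest wildtype array, with a difference of 2.21 (SE 0.30, adjusted p = 0.0064 by limma).

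All 4 kinesins of the midzone and cytokinesis on the list rose. Kif23, the motor subunit of centralspindlin, read 8.13, 8.50, 8.26, 8.32 and 8.53 in wildtype and 10.35, 9.76, 10.27 and 10.39 in knockout cells. The groups did not overlap (difference 1.87, SE 0.23, adjusted p = 0.0047 by limma). Kif20a, which brings the chromosomal passenger complex to the midzone, read 7.57, 8.15, 7.80, 8.21 and 7.70 against 9.82, 9.27, 9.63 and 9.25, again without overlap (1.64, SE 0.26, adjusted p = 0.0112 by limma). Kif20b, which acts late in cytokinesis, read 7.55, 7.36, 7.45, 7.34 and 7.61 against 8.78, 8.22, 9.22 and 9.24 (1.41, SE 0.30, adjusted p = 0.0271 by limma). Kif14, which recruits citron kinase to the midbody, read 4.67, 4.95, 4.46, 5.04 and 5.04 against 6.31, 5.61, 6.12 and 6.59 (1.35, SE 0.30, adjusted p = 0.032 by limma). Kif20b and Kif14 did not overlap between groups either, but they stood close to the threshold. The call of Kif14 was lost when any array other than WT3 or KO2 was left out, with differences of 1.16 to 1.64 and adjusted p up to 0.102 by limma. That of Kif20b was lost without WT2 (1.22, adjusted p = 0.246 by limma), WT4 (1.41, 0.0515) or KO3 (1.30, 0.0539).

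**Figure D2:**
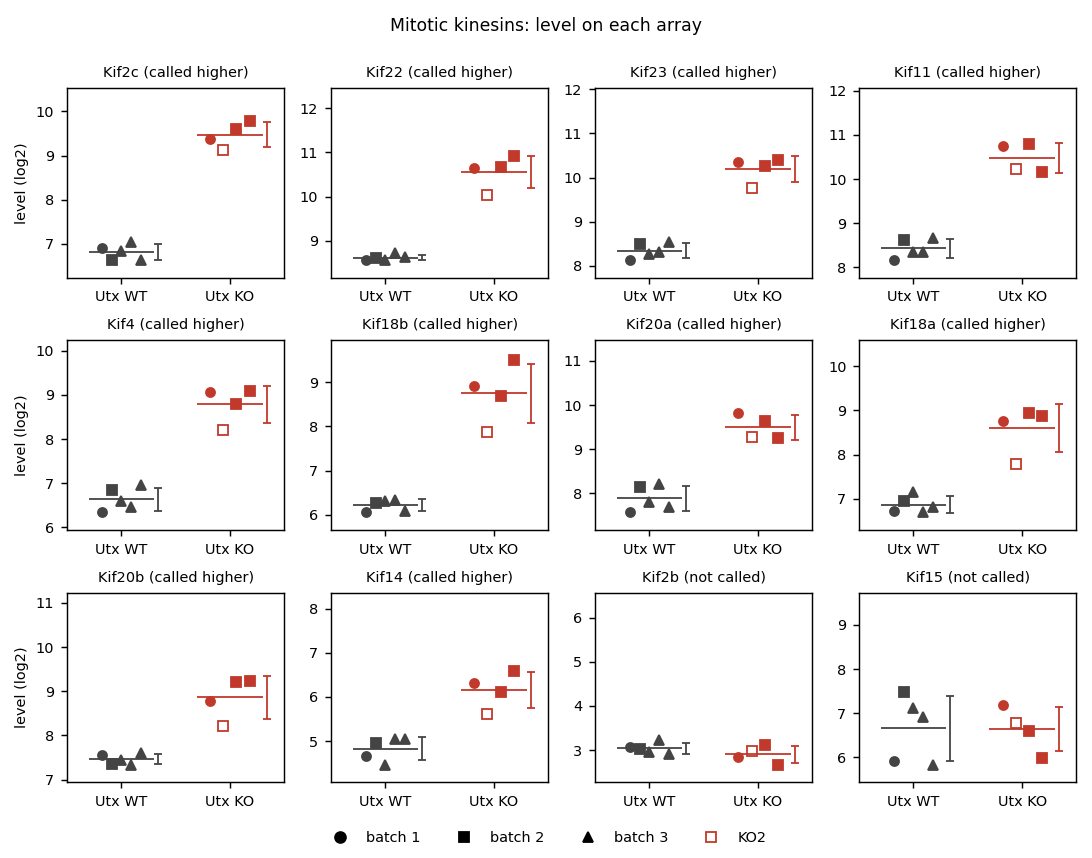
Log2 level (y axis) of the 12 mitotic kinesins on 5 wildtype and 4 knockout arrays, with a point per array, shapes for the batches, an open square for KO2, lines for group means and bars for 1 SD either side of the mean. The knockout points lie above all wildtype points for 10 genes, and the groups overlap for Kif15 and Kif2b.

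In 10 of the 12 mitotic kinesins every knockout array was above every wildtype array, compared with 2 of 13 transport kinesins and 4 of 12 others; over all genes the share was 19.1%. The 10 are the genes called, so the count is no separate support. Almost no batch difference was left in the deposited values. Whether the levels of WT3, WT4 and WT5 are independent of those in batches 1 and 2 is therefore not known. This limits what separation from all wildtype arrays shows for any gene. KO2 was their lowest knockout array in 8 cases, and among all genes called higher this was so in 72.6%. The median deviation of the 12 mitotic kinesins from the wildtype mean was 1.97 on KO1, 1.40 on KO2, 1.98 on KO3 and 1.90 on KO4, while the wildtype arrays ran from -0.16 to 0.12. For the transport kinesins the same measure was 0.14, 0.07, 0.33 and 0.21 on KO1 to KO4 and -0.12 to 0.08 on the wildtype arrays. Kinesins of every role varied more between knockout than between wildtype arrays, with no test of these differences. The median SD was 0.39 (n = 4) against 0.18 (n = 5) for mitotic, 0.34 against 0.18 for transport and 0.22 against 0.15 for other kinesins. The same value over all genes was not computed, so this is no trait of the mitotic genes.

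Of the 12 kinesins with other roles, Kif24 and Kif7 rose. Kif24, a depolymerase at the mother centriole that restrains cilium assembly, read 7.31, 7.50, 7.57, 7.57 and 7.13 in wildtype and 8.90, 8.65, 8.75 and 8.66 in knockout cells. The groups lay more than 1 log2 unit apart, and the difference was 1.35 (SE 0.19, adjusted p = 0.00653 by limma). Kif7, a regulator of Hedgehog signalling at the tip of the cilium, read 5.82, 6.26, 5.67, 6.22 and 6.35 against 7.66, 6.86, 7.87 and 7.47. It did not overlap between groups (1.42, SE 0.32, adjusted p = 0.0337 by limma), but its call was lost when any array other than WT3 or KO2 was left out, with differences of 1.14 to 1.84 and adjusted p up to 0.0955.

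The remaining 10 of that role were not called. Kif2a, a depolymerase of spindle poles and axons, read 9.93, 9.61, 9.82, 9.64 and 9.93 in wildtype and 10.10, 9.98, 10.29 and 10.48 in knockout cells (0.45, adjusted p = 0.168 by limma). Kif6 read 4.45, 3.93, 4.32, 4.34 and 3.93 against 4.50, 5.40, 4.74 and 4.88 (0.66, adjusted p = 0.159 by limma). In both genes all knockout arrays were above all wildtype arrays, and neither passed the threshold. Kif26b, an atypical kinesin, read 5.15, 5.56, 5.72, 5.31 and 5.04 against 5.04, 4.92, 4.72 and 4.78 (-0.50, adjusted p = 0.185 by limma), with WT5 and KO1 both at 5.04. Kif21b, which restrains microtubule growth, read 10.87, 10.52, 10.77, 10.62 and 10.69 against 10.66, 10.61, 11.11 and 11.04, and its groups overlapped (0.16, adjusted p = 0.632 by limma). Kif27 was lower on all knockout than on all wildtype arrays, the only such kinesin (15.0% of all genes), but was not called (-0.27, adjusted p = 0.332 by limma). The differences of Kif21a (0.36), Kif26a (0.20), Kif9 (-0.06), Kif28 (-0.03) and Kif12 (0.0028) had adjusted p from 0.484 to 0.994 by limma. Of this role, Kif6, Kif27 and Kif28 did not exceed the 25th percentile of probe set levels.

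Among transport kinesins the conventional heavy chains, which pair with light chains to carry vesicles and mitochondria, were not called. Kif5b, the widely expressed member, read 10.49, 10.48, 10.67, 10.16 and 10.64 in wildtype and 10.68, 10.56, 10.85 and 10.70 in knockout cells. The groups overlapped, and the difference of 0.21 had a 95% interval of -0.22 to 0.65 (adjusted p = 0.487 by limma). Kif5a (0.08) and Kif5c (0.23) had adjusted p of 0.72 and 0.498.

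The kinesin-2 motors carry cargo into the cilium and, in other cells, vesicles. Kif3a, which pairs with Kif3b or Kif3c, read 7.27, 6.14, 6.49, 6.99 and 6.70 in wildtype and 7.58, 7.82, 8.15 and 8.58 in knockout cells. All knockout arrays were above all wildtype arrays, and the difference of 1.36 (SE 0.38, 95% interval 0.50 to 2.22) missed the threshold (adjusted p = 0.059 by limma). The difference was 0.32 in batch 1 and 2.05 in batch 2, and without WT1 or KO1 the gene passed (2.05, adjusted p = 0.014 by limma). It also passed with no batch term (1.32, adjusted p = 0.00311 by limma) and with a mean-variance trend (1.36, 0.0469). Its other probe sets differed by 0.31, 0.24 and 0.57 and were not called. Its partners Kif3b (0.26, adjusted p = 0.554) and Kif3c (0.31, adjusted p = 0.416) were not called by limma, and neither was the homodimeric Kif17 (0.02, adjusted p = 0.934).

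The kinesin-3 motors move endosomes, synaptic vesicle precursors and mitochondria. Kif16b, which binds early endosomes, read 9.34, 9.14, 9.31, 9.17 and 9.35 in wildtype and 9.43, 9.51, 9.57 and 9.56 in knockout cells. It did not overlap between groups, but the difference was 0.28 and it was not called (adjusted p = 0.244 by limma). Kif1c (0.44), Kif13b (0.56), Kif1a (-0.25), Kif13a (-0.12) and Kif1b (-0.0027) had adjusted p from 0.261 to 0.997 by limma. Without WT1 or KO1, Kif1c passed as well (0.87, adjusted p = 0.0395). Over the 13 transport kinesins the 95% intervals ran from -0.87 to 2.22, so small and, for single genes, larger differences remain possible.

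**Figure D3:**
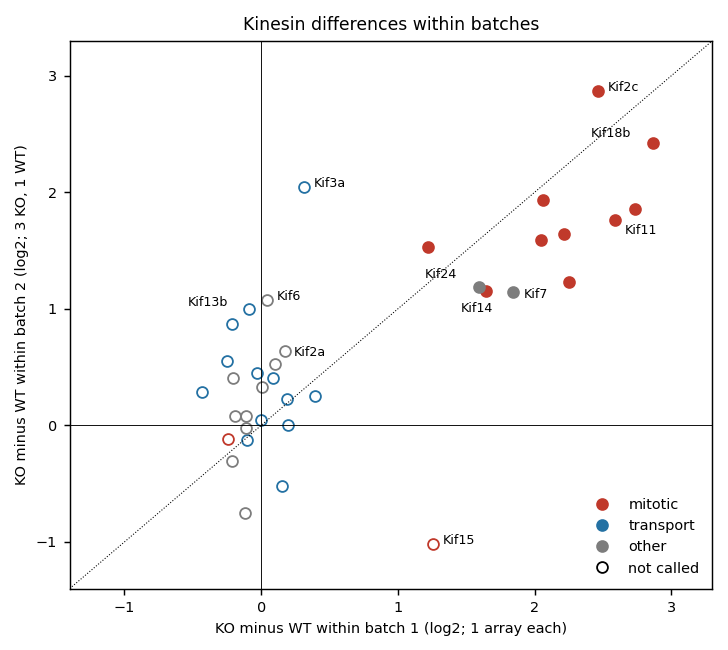
Knockout minus wildtype difference of each kinesin (log2) within batch 1 (x axis, KO1 against WT1) and within batch 2 (y axis, mean of KO2, KO3 and KO4 against WT2), with colours for the roles, open points for genes not called and a dotted line of equal differences. The 10 called mitotic kinesins are above 1 in both batches, and the transport kinesins lie around 0 in batch 1.

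The fitted difference is made from the differences within batch 1 and within batch 2, so a shared sign among called genes is no separate support. The median difference of the 10 called mitotic kinesins was 2.23 in batch 1 and 1.70 in batch 2, and all 10 were above 0 in both. Only Kif2c (2.47 against 2.87) and Kif20b (1.22 against 1.53) had the larger difference in batch 2. The rest of the 10 had it in batch 1, among them Kif11 (2.59 against 1.76) and Kif20a (2.25 against 1.23). Of the transport kinesins 5 of 13 were above 0 in both (35.0% of all genes were), and their median difference was -0.0049 in batch 1 against 0.28 in batch 2. Batch 1 has 1 array per genotype, so these are values without a test. With batch as a random block, 7 transport kinesins rose (among them Kif3a, Kif16b and Kif5b), 6 of the others rose and 2 fell (Kif26b and Kif27), beside 37.7% of all genes called higher, and the mitotic count stayed at 10. With no batch term the counts were 10 mitotic, 2 transport and 4 other kinesins higher, beside 23.8% of all genes. In the deposited values almost no batch difference was left: the median absolute batch term was 0.04 or less, against a residual SD of 0.25, and 0% of genes had an unadjusted batch p under 0.05. The sources used here do not say whether a batch step preceded deposit, and its part in these counts was not tested. If one did, fits without a fixed batch term could understate the spread. Their counts are therefore not on a par with those of the main fit.

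Probe sets of the same gene did not always move together. The family is measured by 99 probe sets, of which 15 of 25 for mitotic, 0 of 51 for transport and 3 of 23 for the other kinesins were called higher and 0 lower, beside 3.73% higher and 2.67% lower over all probe sets. Of the other probe sets of Kif11, 1 rose by 2.58 and 1 differed by 0.14. Kif23 rose by 1.99 on its second probe set, while the third, at a mean level of 3.72, differed by 0.05. The dimmer probe sets of Kif2c gave differences of 1.14 (called), 0.84 and 0.59. The second of Kif18a gave 0.29. Among the called mitotic kinesins, Kif20b alone had probe sets on both sides of 0: beside 1.41 on the brightest, the others gave -0.36, -0.49 and -0.73, none of them called, so its rise rests on 1 probe set. With its probe sets averaged, Kif20b differed by -0.04. The calls of Kif4, Kif14, Kif18b, Kif20a and Kif7 rest on the only probe set of each gene, and Kif18a was called on 1 of 2. Kif24 rose on a second probe set by 0.72 and differed by -0.30 on the third, and its average differed by 0.59 and was not called (adjusted p = 0.0857 by limma). Probe sets on both sides of 0 were also found in uncalled genes, such as Kif13b (-0.43 to 0.56), Kif1b (-0.73 to 0.40), Kif21a (-1.01 to 0.38), Kif2a (-0.29 to 0.45) and Kif3b (-0.50 to 0.33). Which transcripts the probe sets read was not analysed here.

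**Figure D4:**
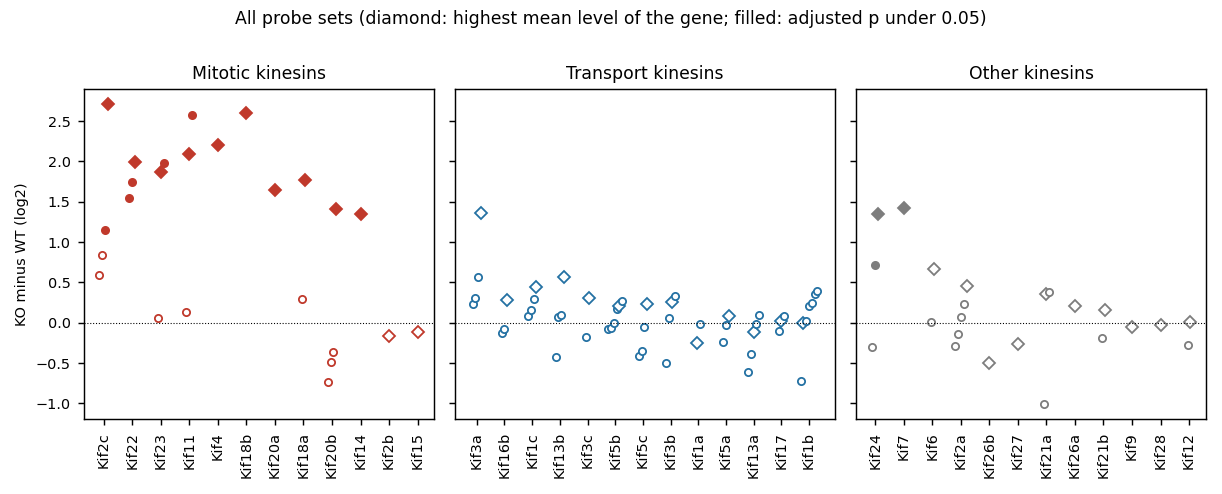
Knockout minus wildtype difference (log2, y axis) of every one-gene probe set of each kinesin gene (x axis), in a panel per role, with a diamond for the probe set of highest mean level and filled symbols at an adjusted p under 0.05. Filled symbols number 15 for mitotic, 0 for transport and 3 for other kinesins, and the probe sets of Kif20b lie on both sides of 0.

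Kinesins and kinesin partners whose symbols lie outside the pattern were set beside the family. Over all genes, 5.99% were called higher and 3.18% lower. Of the 9 measured, 3 rose and 0 fell, with a median of 0.54: Kifc1, the minus-end motor that focuses spindle poles, by 2.22 (adjusted p = 0.00586 by limma), Cenpe, the kinetochore motor, 3.35-fold (0.0297), and Kifap3, the cargo-binding subunit of kinesin-2, 2.62-fold (0.015). Of 14 genes whose proteins load, regulate or work with mitotic kinesins, 13 rose in RNA level (92.9%) and 0 fell. Their median was 1.67 (2.36 in batch 1 and 1.28 in batch 2). Citron kinase Cit, the partner of Kif14, was 3.94-fold higher (adjusted p = 0.00343 by limma), Racgap1, the partner of Kif23 in centralspindlin, 4.51-fold (0.0038), Plk1, a kinase of mitotic entry, 4.52-fold (0.00512), and the spindle protein Nusap1 3.40-fold (0.00748). Numa1, a spindle pole protein, was the member not called (adjusted p = 0.792) and is named after its value was seen.

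Among cargo adaptors and among dynein and dynactin genes, the share called was near that of all genes (5.99% higher). Kifap3, which rose, and the light chains of kinesin-1 also belong to transport motors but are counted in the list outside the pattern. Of 13 measured cargo adaptors 1 rose (7.69%) and 0 fell, with a median of 0.15: Trak1, which ties kinesin-1 to mitochondria, by 0.83 (adjusted p = 0.0202 by limma). Its relative Trak2 differed by 1.18 (0.109), and the scaffolds Spag9 and Mapk8ip1 by 0.68 (0.0928) and -0.50 (0.0681). Of 23 measured subunits and adaptors of dynein, the motor of the opposite direction, and its activator dynactin, 1 rose (4.35%) and 0 fell, with a median of 0.35: the heavy chain Dync1h1 by 0.86 (0.0406). Dync1i2 (0.81, 0.057), Bicd2 (0.70, 0.0661) and Dynll1 (0.51, 0.0708) missed the threshold, and 21 of the 23 differences were above 0, beside 9813 of 18193 over all genes. Of the 23, 22 exceeded the 25th percentile of probe set levels, and the median of all genes above it was 0.11.

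Some markers of dividing cells and of other cell types were also called, beside 5.99% of all genes higher and 3.18% lower. Of 7 proliferation markers 5 rose (median 1.37), with a mean level over the list of 9.97 to 10.38 on wildtype and 11.26 to 11.74 on knockout arrays. Cdk1, the kinase of mitotic entry, rose by 1.86, Ccna2 by 1.84, the topoisomerase Top2a by 1.32 and the checkpoint kinase Bub1 by 1.81. Of 12 markers of double-positive thymocytes, the immature precursors in the thymus, 9 rose and 0 fell (median 1.01), with a mean level of 10.36 to 10.83 in wildtype and 11.43 to 12.00 in knockout. Of 11 macrophage and dendritic cell markers 4 rose (4.75 to 5.39 against 6.07 to 7.05, with Cd14 and Itgam not above the 25th percentile), and of 6 B cell markers 3 rose (6.86 to 7.21 against 7.85 to 8.76). Of 9 T and iNKT cell markers 3 fell and 0 rose (11.78 to 11.94 against 11.22 to 11.57): Cd44 by 1.23, Tbx21 by 1.08 and Il2rb by 1.01, all on the log2 scale. The part of these other cells in the rise of the mitotic kinesins was not tested.

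**Figure D5:**
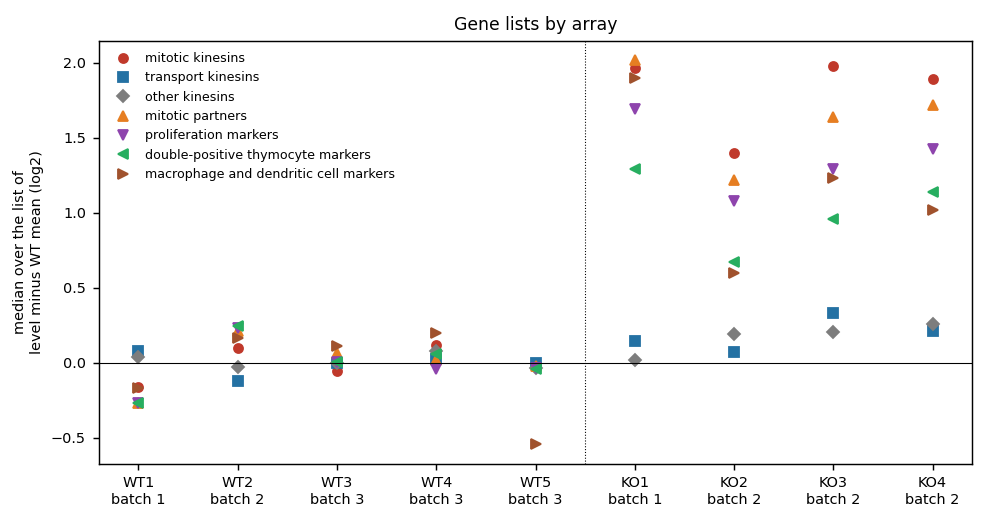
Median over each list of the level minus the wildtype mean (log2, y axis) on each of the 9 arrays (x axis), for the 3 kinesin roles, mitotic partners and 3 marker lists. On KO1 to KO4 the mitotic kinesins stand between 1.40 and 1.98 and the transport kinesins between 0.07 and 0.33.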

How the data were processed

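RNA of 5 wildtype and 4 knockout samples was measured on 9 arrays of 45101 probe sets. The deposited log2 values come from RMA run by the authors, a method that subtracts background, equalises distributions between arrays and summarises the probes of a set. The submitters' processing notes name RMA without a version. Probe sets were named through the platform annotation: 34945 have 1 gene symbol, 932 several and 9160 none, and 64 are controls; 34741 matched the RefSeq gene table and 0 symbols changed. The brightest probe set stood for each gene, with no filter on level. Differences were fitted with limma 3.58.1 in R 4.3.3 (lmFit and eBayes, genotype and batch as fixed factors, 5 residual and 3.45 prior degrees of freedom), two-sided, with Benjamini-Hochberg adjustment over 18193 genes at 0.05 and 95% intervals, and the code was tested on simulated data. The number of arrays limits the precision.

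The members, roles and lists were chosen with earlier results of these data known. Every member is named. Values on every array are given for called members, for the 4 uncalled members of smallest p and for the 4 of highest mean level, and up to 4 genes of smallest p are named per list (Numa1, Cd14 and Itgam are named outside this rule). Alternatives were the batch term, level filters, normalization, probe set choice, variance model, array weights, thresholds, roles and arrays left out. Replicate numbers were not used to pair arrays. Proteins were not analysed here.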

Additional observations from a re-analysis of the deposited data

Results flagged for a closer look

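Kif18a read 7.79 on KO2, while the other knockout arrays read 8.77 to 8.94. The gap to the nearest array was 0.849 of the range of the knockout group (KO1, KO2, KO3 and KO4), more than Dixon's 95% critical value for 4 samples. Of 74 groups of kinesin levels examined this way (37 genes in both genotypes), 1 passed (1.35%), and chance passes about 1 in 20. KO2 still stood above all 5 wildtype arrays.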

How the results depend on the processing

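Over 907 alternative values of single kinesins, 786 kept direction and side of the threshold, 39 lost and 30 gained a call, and 52 changed sign. Kif2c, Kif22, Kif23, Kif11, Kif4, Kif18b, Kif20a and Kif24 kept their calls without any single array. These fits are not separate checks, since leaving out WT1, KO1 or the batch 1 pair gives the same fit. Leaving out WT2 leaves KO1 minus WT1 as the difference. Kif24 lost its call with averaged probe sets (0.59, adjusted p = 0.0857 by limma). The mitotic count of 10 became 6 at an adjusted p of 0.01, where 1.15% of all genes were higher. It became 5 without the batch 3 arrays (1.25%) and 7 with array weights (1.94%). It ran from 7 to 10 with 1 array left out. The mitotic median became 1.33 with all probe sets of a gene averaged and ran from 1.62 to 2.14 with 1 array left out. Transport kinesins called higher numbered 2 with no batch term, 7 with a random block, 1 with the upper filter (50th percentile), averaged probe sets, the most variable probe set or a variance trend, 2 without the batch 1 pair, and 0 to 2 with 1 array left out. Their median was 0.11 after another quantile normalization, 0.035 with averaged and -0.099 with the most variable probe sets, and ran from -0.0049 to 0.28 with 1 array left out. Other kinesins higher numbered 4 with no batch term, 6 with a random block, 1 with averaged probe sets, array weights, an adjusted p of 0.01, no batch 3 arrays or no batch 1 pair, and 1 to 2 with 1 array left out; 1 was lower with no batch term and 2 with a random block. Their median was 0.90 at the upper filter, -0.021 with averaged and -0.041 with the most variable probe sets, 0.37 without the batch 1 pair, and -0.049 to 0.37 with 1 array left out. Counting Kif2a as mitotic left 10 mitotic and 2 other kinesins higher, and counting Kif21a and Kif21b as transport left 0 transport and 2 other. Shares of all genes called higher were 23.8% with no batch term, 37.7% with a random block and 10.8% with the upper filter. They were 5.99% with averaged probe sets, 7.27% with the most variable one, 7.39% with a variance trend and 7.01% without the batch 1 pair. With 1 array left out they ran from 3.13% to 7.51%. Filtering at the 25th percentile left Kif2b, Kif6, Kif27 and Kif28 without a value. The cause of these changes was not tested.

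Same-numbered deviations correlated at -0.93, 0.08, 0.01 and 0.15. WT1 and KO1 are the only arrays of batch 1, and almost no batch difference was left in the deposited values. This sets their deviations against each other whatever the pairing. The correlations therefore do not decide whether replicate numbers pair the arrays. The replicate block gave 10 mitotic, 1 transport and 2 other kinesins higher and 1 other lower, beside 15.7% of all genes higher.

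The only called gene to change sign was Kif20b (-0.043 with averaged probe sets). Kif1b changed sign most often: 0.019 with no batch term, 0.039 with a random block, 0.083 with the replicate block, 0.034 with centred arrays, 0.070 with averaged probe sets, 0.25 with the most variable one, 0.039 with array weights and 0.28 without the batch 1 pair. Kif28 gave 0.017 (random block), 0.014 (replicate block), 0.14 (quantile), 0.0091 (centred) and 0.083 (no batch 1 pair), and Kif15 0.085 (random block). Another quantile normalization turned Kif16b (-0.011), Kif21b (-0.0012) and Kif9 (0.020). Averaged probe sets turned Kif12 (-0.14), Kif21a (-0.091), Kif21b (-0.015), Kif5a (-0.063) and Kif5c (-0.15). The most variable probe set turned Kif12 (-0.28), Kif16b (-0.12), Kif17 (-0.099), Kif21a (-1.01), Kif2a (-0.29), Kif3b (-0.50), Kif5a (-0.24), Kif5b (-0.080) and Kif5c (-0.35). With 1 array left out, signs changed within -0.11 to 0.089 (Kif12), -0.27 to 0.039 (Kif13a), -0.091 to 0.997 (Kif13b), -1.02 to 1.26 (Kif15), -0.028 to 0.062 (Kif17), -0.52 to 0.15 (Kif1a), -0.43 to 0.28 (Kif1b), -0.21 to 0.87 (Kif1c), -0.20 to 0.41 (Kif21b), -0.19 to 0.083 (Kif28), -0.028 to 0.45 (Kif3b) and -0.25 to 0.56 (Kif5c). Calls over all genes were higher in 65.3% of cases, and in 54.8% without the batch 1 pair.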
